A study of Mus musculus with 8 samples.

Results

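The circular RNAs (circRNAs) described here come from 7 genes of the Z-disc and the thin filament of the heart: Pdlim5, Ldb3, Actn2, Fhod3, Xirp2, Tnnt2 and Tpm1. Their circles were taken by the host gene that the authors' table gives for each circle, a rule that uses no level. The circles make up 101 of the 27391 circles and 7 of the 6492 host genes in the table. Heart tissue was taken from male wild-type (WT) mice, 4 with transverse aortic constriction (TAC) and 4 with a sham operation, at 8 weeks after surgery, with 1 library per mouse. In TAC a band narrows the aorta and raises the load on the left ventricle. Sham mice share the genotype, sex and time but not the constriction. The question is whether the output of circles from these genes differs between hearts under chronic pressure load and hearts without it. The labels do not name a chamber, so the values are those of bulk heart tissue with all its cell types.

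A circRNA is a closed loop in which the 3′ end of an exon has been joined to an upstream 5′ end. A back-spliced read is a read that crosses this closing junction. An intronic circle (ciRNA) is instead a closed piece of an intron that begins at the 5′ splice site, usually a lariat that lost its tail. The Z-disc is the plate at which thin filaments of neighbouring sarcomeres are anchored, and alpha-actinin 2 (Actn2) crosslinks the actin there. Pdlim5 (also called ENH) and Ldb3 (also called Cypher or ZASP) are PDZ and LIM domain scaffold proteins that bind alpha-actinin. Fhod3 is a formin that assembles the actin filaments of the sarcomere, and Xirp2 binds actin at intercalated discs and Z-discs. Cardiac troponin T (Tnnt2) and tropomyosin 1 (Tpm1) lie along the thin filament and pass the calcium signal on to actin. Mutations in several of these genes are known causes of inherited cardiomyopathy.

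Back-spliced read totals were 33132, 1119, 21074 and 36120 in TAC replicates 1 to 4, against 40796, 3963, 17890 and 100142 in sham replicates 1 to 4. TAC replicate 2 and sham replicate 2 therefore held fewer than 5000 reads each, and the fits of the gene sums and main circles that rest on them are given with and without both. These shallow libraries also stood apart in the circles discussed here. TAC replicate 2 had 1 read from the 7 genes, and sham replicate 2 resembled the deeper TAC libraries in the makeup of its Pdlim5 and Fhod3 circles. Values are normalised reads, meaning reads divided by 1 size factor per library. A single read was worth between 0.636 and 5.77 normalised reads in TAC libraries and between 0.195 and 4.54 in sham libraries. A count of 0 in TAC replicate 2 allows up to 17.3 normalised reads (3 reads), and in sham replicate 2 up to 13.6. The circles seen numbered 10786, 567, 7770 and 11550 in TAC replicates 1 to 4, against 9081, 1830, 4980 and 5600 in sham replicates 1 to 4. Sham replicate 4 thus had the most reads but fewer circles than sham replicate 1 and the deeper TAC libraries. Of 10 cardiomyocyte marker genes, none of them among the 7, 8 had circles. Their summed level was 1669, 277, 1232 and 1108 normalised reads in TAC replicates 1 to 4, against 326.5, 786, 166 and 203 in sham replicates 1 to 4. The deeper TAC libraries thus stood above all sham libraries, sham replicate 2 above the other sham libraries and TAC replicate 2 below the other TAC libraries. The sums of endothelial markers (10 of 10 with circles) were between 33.5 and 58.5 in the deeper TAC libraries and 5.77 in TAC replicate 2, against 14.8 to 19.6 in the deeper sham libraries and 45.4 in sham replicate 2. Those of smooth muscle and pericyte markers (4 of 10) were between 12.4 and 22.9 in the deeper TAC libraries and 28.9 in TAC replicate 2, against 8.28 to 11.1 in the deeper sham libraries and 22.7 in sham replicate 2. Fibroblast markers (7 of 10) summed to between 0 and 5.20 in TAC and between 2.48 and 5.06 in sham, and leukocyte markers (4 of 10) to between 11.5 and 24.2 in TAC and between 7.58 and 19.0 in sham, and both overlapped among the deeper libraries. The part of these markers in the results was not tested.

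Most circles of the 7 genes were rare, and a few carried most of the reads. The 101 circles held 1053 reads, 653 in TAC libraries and 400 in sham libraries. Over the whole table, the sham libraries held more reads (91445 in TAC, 162791 in sham). Of the 101 circles, 40 rested on a single read, 55 were seen in 1 library, 14 had 10 reads or more, and none was seen in all 8 libraries. The 4 circles with the most reads held 61.7% of the reads. The 7 genes took 0.688%, 0.0894%, 0.664% and 0.786% of the reads of TAC replicates 1 to 4 and 0.297%, 0.833%, 0.252% and 0.201% of those of sham replicates 1 to 4. The 3 deeper TAC libraries and sham replicate 2 were thus high and the 3 deeper sham libraries low, with the single read of TAC replicate 2 lowest of all. Among the circles, 56 were seen in TAC libraries only, 15 in sham libraries only and 30 in both groups. Of all circles listed, 48.0% were seen in TAC libraries only and 24.6% in sham libraries only.

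Fhod3 gave 30 circles, Pdlim5 19, Tpm1 17, Tnnt2 13, Actn2 12, and Ldb3 and Xirp2 5 each. Of the 101 circles 72 were exonic and 29 intronic, a share of 28.7% intronic against 4.75% of all other circles. In reads, intronic circles made up 6.08% of the output of the 7 genes and 1.12% of that of the other genes. Within the 7 genes, the intronic circles belonged mainly to the thin filament genes Tnnt2 and Tpm1. All 17 Tpm1 circles and 9 of the 13 Tnnt2 circles were intronic, against 1 each for Ldb3, Actn2 and Xirp2 and none for Pdlim5 and Fhod3. The exonic circles had a median of 4 exons, as did the other exonic circles of the table, and a median spliced length of 593 nucleotides (nt) against 501 nt elsewhere. No exonic circle of the 7 genes consisted of a single exon, against 2.70% of the others. Circles opening at exon 2 made up 13.9% of them against 23.2% of the others. Of the 72 exonic circles 68 (94.4%) lay wholly in coding sequence, against 88.4% elsewhere, and 24 (33.3%) had a length that is a multiple of 3, against 38.0% elsewhere.

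Pdlim5 and Fhod3 were the main hosts by level, and the other 5 genes stayed near the limit of detection. Per kilobase of spliced circle, Pdlim5 had 143.9 ± 89.9 normalised reads in TAC and 60.7 ± 8.56 in sham (SD, n = 4 each), and Fhod3 61.4 ± 41.8 in TAC and 58.6 ± 60.0 in sham. On the same per-kilobase scale the levels of Actn2 (7.99 in TAC, 3.17 in sham), Tnnt2 (5.23 in TAC, 7.19 in sham), Tpm1 (4.26 in TAC, 4.06 in sham), Ldb3 (4.05 in TAC, 0.853 in sham) and Xirp2 (2.54 in TAC, 1.40 in sham) lay within 1 SD of their neighbours in the order. Back-spliced reads cross only the closing junction, so division by length gives short circles more weight. Without it Pdlim5 had 76.3 in TAC and 26.2 in sham, and Fhod3 32.6 in TAC and 30.9 in sham. The order of the groups turned for Tpm1 (4.30 in TAC, 4.44 in sham). In the 6 deeper libraries the levels per kilobase were 186.2 ± 36.7 in TAC and 63.6 ± 7.65 in sham for Pdlim5, and 81.9 ± 10.4 in TAC and 28.6 ± 4.84 in sham for Fhod3 (SD, n = 3 each). On the same basis Tnnt2 had 6.98 ± 2.57 in TAC and 1.93 ± 3.12 in sham, and Tpm1 5.67 ± 2.86 in TAC and 1.28 ± 0.66 in sham, so for Tnnt2 the higher sham mean was lost. In bulk tissue, fewer cells of a type and less RNA per cell cannot be told apart, and this holds for each level that follows.

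**Figure D1:**
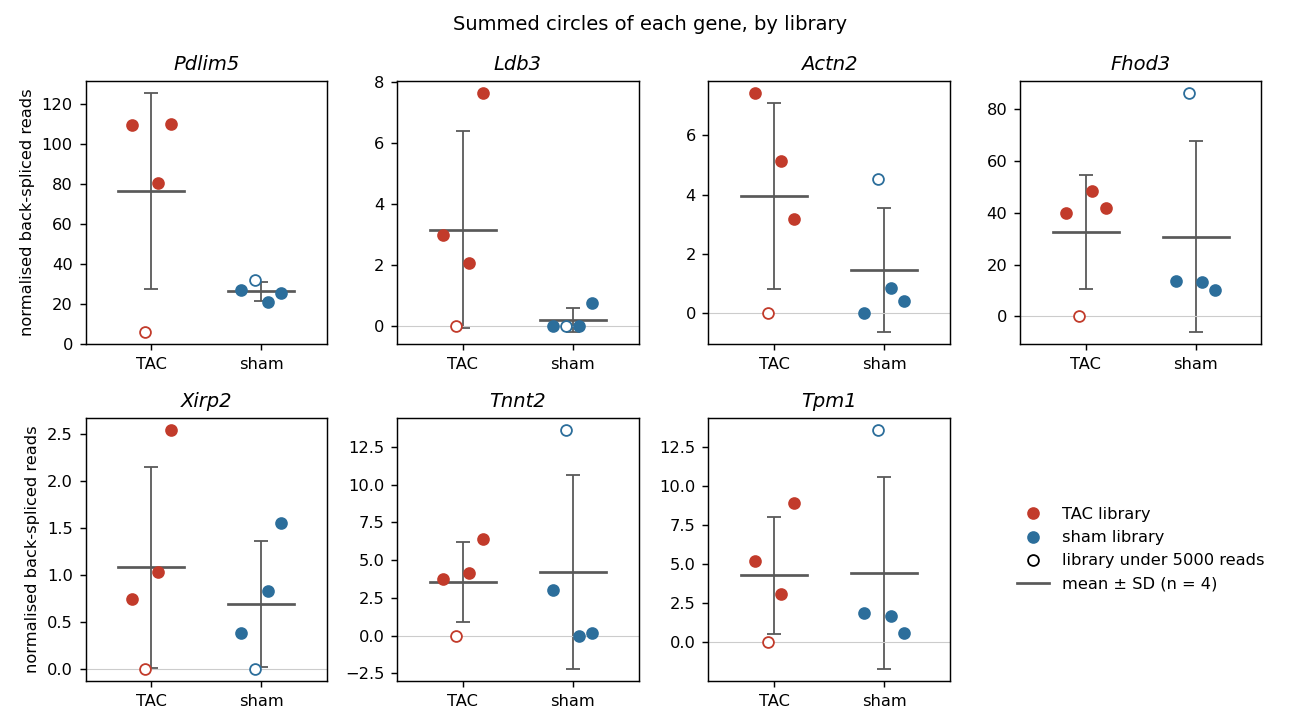
Summed normalised back-spliced reads (y axis, linear, a scale of its own for each gene) of all circles of each of the 7 genes, with TAC libraries left and sham libraries right; points are libraries, open points the 2 libraries under 5000 reads, and bars the mean ± SD (n = 4). The 3 filled TAC points of Pdlim5 lie between 80.3 and 110.0, above the 4 sham points, while in Fhod3 the open sham point (86.3) lies above all TAC points.

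Pdlim5 had 399 reads in TAC libraries and 233 in sham libraries. Its circles summed to 109.3, 5.77, 80.3 and 110.0 normalised reads in TAC replicates 1 to 4, against 26.9, 31.8, 20.7 and 25.3 in sham replicates 1 to 4. The 3 deeper TAC libraries were all above the sham libraries and TAC replicate 2, with 1 read, was below them, so the groups overlapped through that library. The means were 76.3 ± 49.0 in TAC and 26.2 ± 4.58 in sham (SD, n = 4 each). The main test, limma on log2(value + 0.195), gave a log2 fold change (TAC over sham) of 0.91 ± 0.76 (SE). The 95% interval was −0.59 to 2.41, and limma did not call the gene (Benjamini-Hochberg adjusted p = 0.9995). The count test on the reads recovered from the values, edgeR's quasi-likelihood test, gave 1.25 ± 0.62 (adjusted p = 0.195), and DESeq2 1.38 ± 0.46 (adjusted p = 0.0463). Without the 2 shallow libraries the call was made by both tests, at 2.02 ± 0.27 with limma (adjusted p = 0.00115) and 1.61 ± 0.29 with edgeR (adjusted p = 0.00143).

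The excess in TAC sat in circles that open at exon 7. The transcript matched to the table has 15 exons and 614 codons and lies on the minus strand of chromosome 3. There the circle of exons 7 to 10 spans chr3:142277817-142284916 (mm10). It is 581 nt long when spliced, lies wholly in coding sequence (codons 198 to 392), and is the most abundant circle of the 7 genes by mean level. The junctions of the circles that carry this result are shown from GENCODE M21 transcripts, 5′ to 3′. Each has the last 15 bases of the last exon in lower case and the first 15 bases of the first exon in capitals.
Pdlim5 exons 7 to 10: gtccaaaccaagcagGTTTTACAGTTCTCT
Pdlim5 exons 7 to 11: caaccaagttatcagGTTTTACAGTTCTCT
Pdlim5 exons 3 to 6: tacgaagaaggcaaaAGCTTCAGCTGCAGC
The circles of exons 7 to 10 and 7 to 11 share the acceptor in capitals and differ in the donor. That of exons 3 to 6 is shown as the second most abundant Pdlim5 circle and shares neither.

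The circle of exons 7 to 10 had 94, 0, 53 and 97 reads in TAC replicates 1 to 4, against 5, 4, 0 and 7 in sham replicates 1 to 4. In normalised reads this was 69.9, 0, 54.6 and 61.7 in TAC and 1.90, 18.2, 0 and 1.36 in sham. The deeper TAC libraries stood far above every sham library, TAC replicate 2 had none, and the highest sham value came from 4 reads of the shallow sham replicate 2. edgeR's quasi-likelihood test gave a log2 fold change of 4.09 ± 0.93 (95% interval 2.26 to 5.91, 17.0-fold) and an adjusted p of 0.00203. The fold was 11.1 without sham replicate 3 and 32.8 without sham replicate 2. It was the 1 circle called among the 5 circles of the 7 genes that edgeR tested, where 13.1% of all tested circles were called and 7.39% were called higher in TAC. limma gave 2.99 ± 1.47 (unadjusted p = 0.0422, adjusted p = 0.834). It called none of the 12 circles of the 7 genes it tested, where 0.0268% of all tested circles were called. DESeq2 gave 3.85 ± 1.02 (adjusted p = 0.0182). It called this circle and 1 other of the 6 circles of these genes to which it gave an adjusted p, where 1.68% of all such circles were called. Without the 2 shallow libraries the log2 fold change was 5.35 ± 0.56 with edgeR (adjusted p = 2.4e-05) and 6.17 ± 0.86 with limma (adjusted p = 0.0163). In that edgeR fit, and in the edgeR fit without sham replicate 2, the circle passed the filter only through the deeper TAC libraries. A call there could only be higher in TAC, so its direction carries no information. The edgeR call was lost without TAC replicate 3 (adjusted p = 0.0658), without sham replicate 3 (adjusted p = 0.0890), without sham replicate 4 (adjusted p = 0.0627) and with no filter on low counts (adjusted p = 0.238).

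Circle length moved with the groups as well. The spliced circle length at the median read of a library was 541, 334, 519 and 498 nt in TAC replicates 1 to 4 and 394, 490, 369 and 353 nt in sham replicates 1 to 4, so that the deeper TAC libraries held longer circles. After an offset for each library's trend with length, the exons 7 to 10 circle kept a log2 fold change of 3.67 ± 0.78 and its call by edgeR (adjusted p = 0.0254), where 3.67% of all tested circles were called. In limma, removing the length trend lowered the estimate to 2.31 ± 1.39 (unadjusted p = 0.109, adjusted p = 0.621).

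Of the abundant Pdlim5 circles that open at other exons, edgeR called none. The circle of exons 7 to 11 (744 nt), which has the same first exon and was singled out after its values were seen, had 16, 0, 6 and 23 reads in TAC replicates 1 to 4 and 0 in each sham library. Its pooled TAC level was 34.0 times a floor of 3 reads over the whole sham group. Counting error and spread among the TAC libraries do not enter this ratio, so it is not a lower bound. The exons 7 to 11 circle did not pass the filters of the main limma and edgeR fits, and DESeq2 gave an adjusted p of 0.0163. Without the 2 shallow libraries edgeR gave an adjusted p of 0.00046. There the circle passed the filter only through the deeper TAC libraries, so it could only come out higher in TAC. Exons 3 to 6 (345 nt) had 15, 1, 4 and 19 reads in TAC and 30, 0, 3 and 68 reads in sham. The log2 fold change of this circle was −0.20 ± 0.67 with edgeR (95% interval −1.52 to 1.13, adjusted p = 0.884) and 1.37 ± 1.49 with limma (adjusted p = 0.907). The signs of the estimates differed and the groups overlapped on both the read and the normalised scale. Without the 2 shallow libraries limma gave 0.18 ± 0.73 and edgeR −0.24 ± 0.57, so the larger limma estimate rests on these libraries. Exons 10 to 11 (348 nt) had 12, 0, 5 and 12 reads in TAC and 18, 0, 16 and 48 in sham, with a log2 fold change of −0.67 ± 0.70 (edgeR, adjusted p = 0.569). Exons 5 to 10 (791 nt), a circle with the same last exon as the called one, had 1, 0, 2 and 8 reads in TAC and 10, 2, 4 and 3 in sham, with −0.49 ± 1.03 (edgeR, adjusted p = 0.793).

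**Figure D2:**
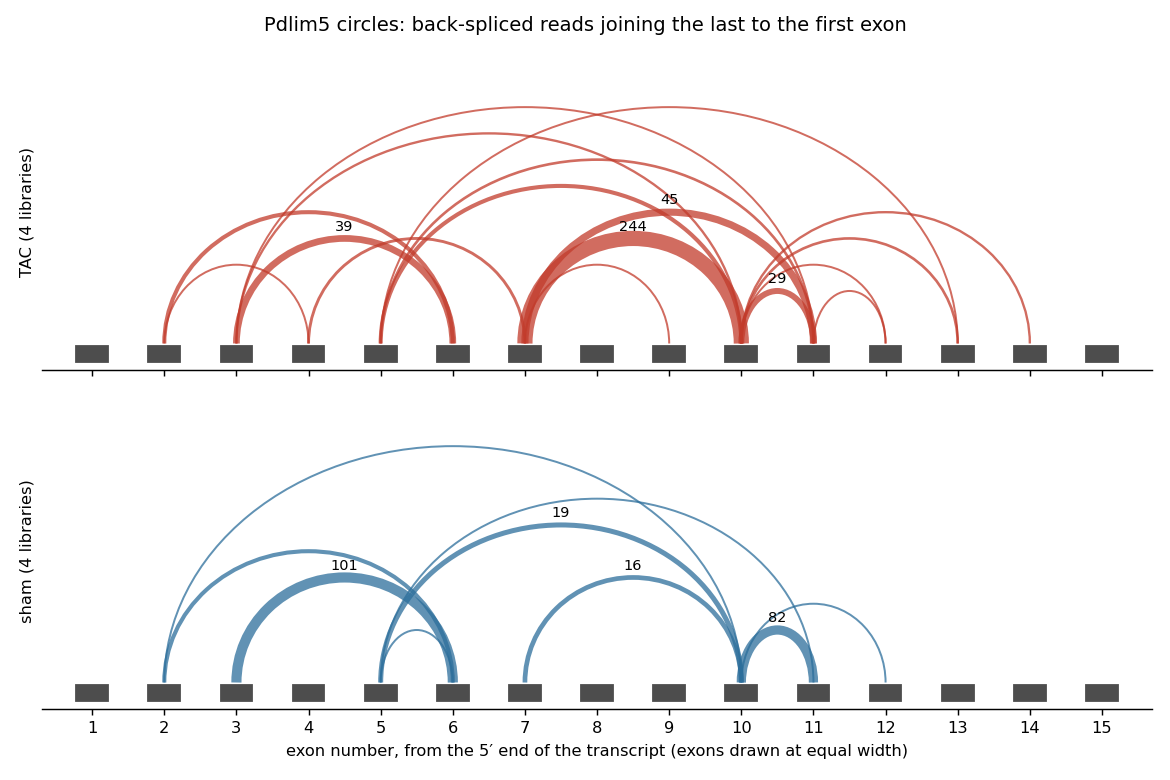
Pdlim5 circles drawn as arcs from their first to their last exon on the 15 exons of the transcript (x axis, exon number from the 5′ end, exons at equal width), TAC above and sham below; line width grows with the reads summed over 4 libraries, and the numbers are these sums for the larger circles. Exons 7 to 10 hold 244 reads in TAC and 16 in sham, while exons 3 to 6 hold 39 in TAC and 101 in sham.

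Summed by first exon, the 3 circles that open at exon 7 averaged 54.9 ± 37.7 normalised reads in TAC and 5.36 ± 8.58 in sham, and the other 16 Pdlim5 circles 21.5 ± 11.9 in TAC and 20.8 ± 5.13 in sham (SD, n = 4 each). Circles opening at exon 7 took 75.5% of the Pdlim5 reads in TAC replicate 1 (95% Wilson interval 68.0 to 81.8), 75.6% in replicate 3 (65.1 to 83.8) and 69.4% in replicate 4 (62.1 to 75.8). They took 7.04% in sham replicate 1 (3.05 to 15.4), 0% of 25 reads in replicate 3 (upper bound 13.3) and 5.38% in replicate 4 (2.63 to 10.7). Only counting error enters these intervals, and PCR copies were not told apart from independent molecules. The intervals of the deeper libraries of the groups lay apart. Of the shallow libraries, sham replicate 2 went the other way, with 4 of 7 reads (57.1%, 25.0 to 84.2). TAC replicate 2 had 0 of 1 read (upper bound 79.3), too few to place its share.

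**Figure D3:**
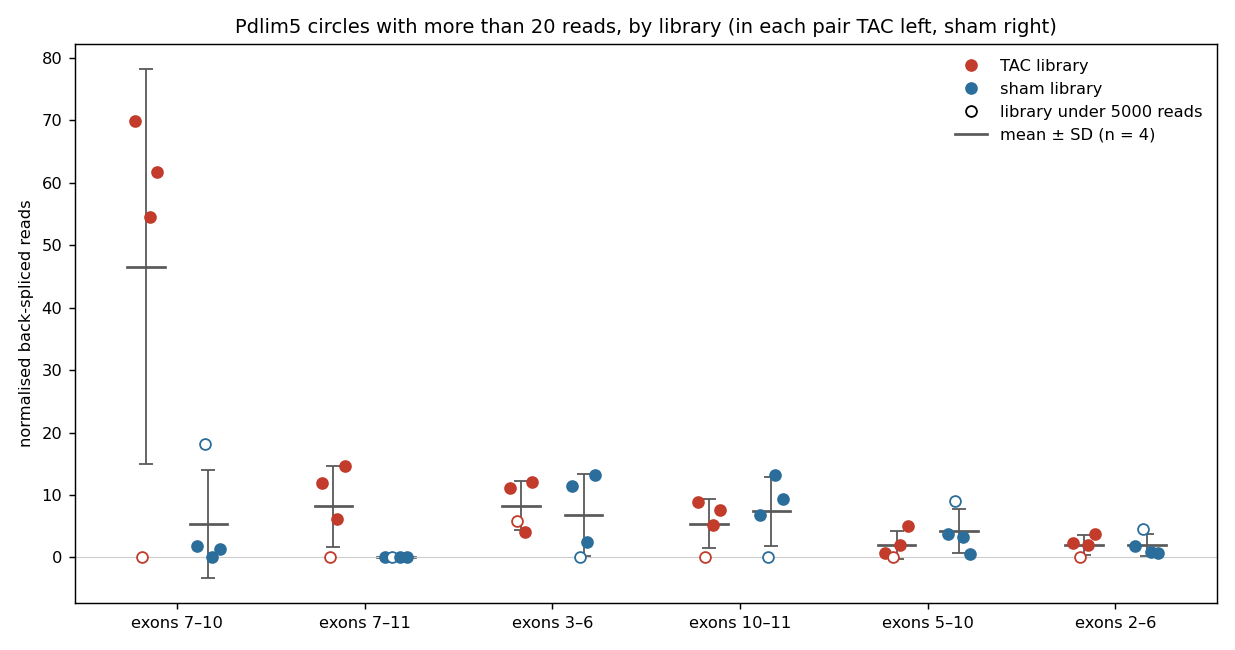
Normalised back-spliced reads (y axis, linear) of the 6 Pdlim5 circles with more than 20 reads, TAC left and sham right in each pair; points are libraries, open points the 2 libraries under 5000 reads, bars the mean ± SD (n = 4). The deeper TAC libraries stand at 54.6 to 69.9 for exons 7 to 10, while the pairs for exons 3 to 6, 10 to 11, 5 to 10 and 2 to 6 overlap.

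Fhod3 gave the most circles of the 7 genes, and its leading circle also opens at an exon that little of the rest of its output uses. The circles of the gene summed to 40.2, 0, 48.4 and 42.0 normalised reads in TAC replicates 1 to 4, against 13.7, 86.3, 13.2 and 10.3 in sham replicates 1 to 4. The shallow sham replicate 2 (19 reads) was the highest and the shallow TAC replicate 2 (0 reads) the lowest of all. Between them, the 3 deeper TAC libraries were above the 3 deeper sham libraries. With all libraries limma gave a log2 fold change of −0.85 ± 1.07 (95% interval −2.94 to 1.25, adjusted p = 0.9995) and edgeR 0.34 ± 0.63 (adjusted p = 0.802), and neither called the gene. Without the 2 shallow libraries both did, with 1.80 ± 0.31 from limma (adjusted p = 0.00525) and 1.40 ± 0.34 from edgeR (adjusted p = 0.00798), so the direction of the limma estimate rests on these libraries.

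The leading Fhod3 circle joins exons 11 to 13 of a 27-exon transcript (558 nt, codons 400 to 586 of 1578). Its first 2 exons are absent from the 25-exon transcript to which most Fhod3 circles were matched. Exons included in the heart form of Fhod3 by alternative splicing are well known. The circle had 30, 0, 33 and 32 reads in TAC replicates 1 to 4, against 15, 17, 6 and 6 in sham replicates 1 to 4. The deeper TAC libraries differed by at most 3 reads and exceeded every sham library on that scale. After normalisation, however, the 17 reads of sham replicate 2 become 77.2, above the 20.4 to 34.0 of the deeper TAC libraries. The log2 fold change was −0.01 ± 1.37 with limma (adjusted p = 0.999) and 0.49 ± 0.79 with edgeR (adjusted p = 0.731). Without the 2 shallow libraries it was 2.86 ± 0.62 with limma (adjusted p = 0.0313) and 2.57 ± 0.61 with edgeR (adjusted p = 0.00625). Circles opening at this exon took 75.9%, 72.3% and 60.6% of the Fhod3 reads of TAC replicates 1, 3 and 4 and 44.4%, 89.5%, 37.5% and 11.3% of those of sham replicates 1 to 4. The remaining 27 Fhod3 circles summed to 9.90 ± 7.17 normalised reads in TAC and 8.52 ± 0.74 in sham (SD, n = 4 each). By library they had 9.67, 0, 13.4 and 16.5 in TAC replicates 1 to 4, against 7.58, 9.09, 8.28 and 9.14 in sham replicates 1 to 4. The deeper TAC libraries were thus above all sham libraries here too, and the near-equal means rest on TAC replicate 2.

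Other Fhod3 circles were low and patchy. Exons 11 to 16 of 27, the circle with the smallest unadjusted limma p of the gene, had 7, 0, 1 and 8 reads in TAC and 1, 0, 0 and 0 in sham (log2 fold change 2.66 ± 1.33, unadjusted p = 0.0449, adjusted p = 0.834). Exons 6 to 9 of 25, the second most abundant circle, had 3, 0, 1 and 4 reads in TAC and 9, 0, 9 and 0 in sham (limma 0.15 ± 1.55, adjusted p = 0.997). Sham replicate 4, the library with the most reads but not the most circles, held 18 of the 19 reads of exons 4 to 5. It also held 10 of the 12 reads of exons 2 to 5 and 9 of the 12 reads of exons 6 to 11. Each of the other sham libraries had 0 reads of these circles.

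**Figure D4:**
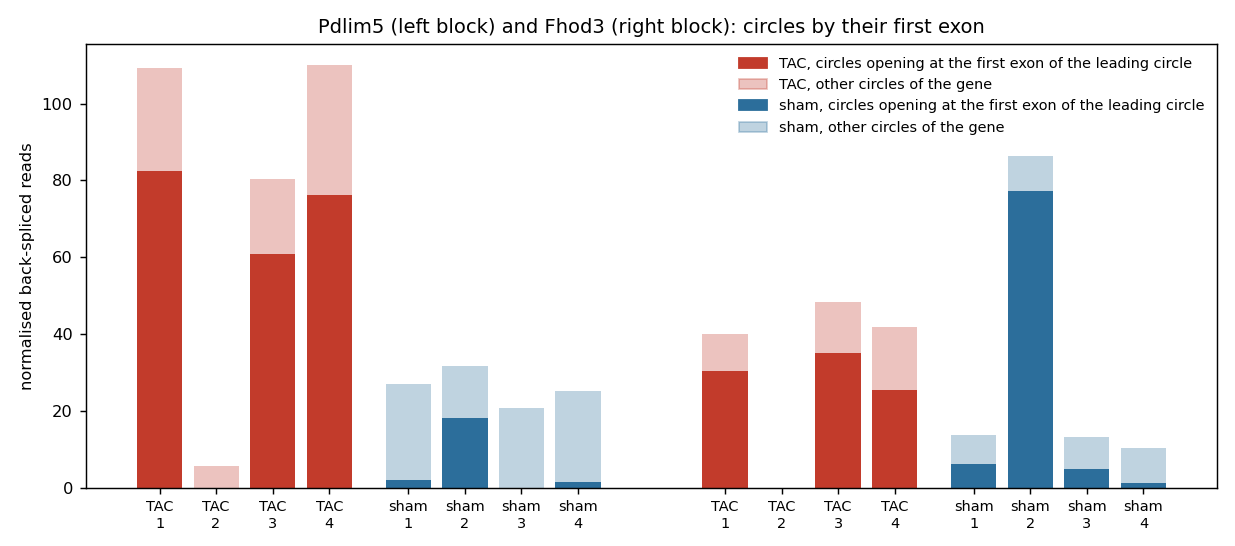
Stacked normalised back-spliced reads (y axis, linear from 0) of Pdlim5 (left block) and Fhod3 (right block) in each library, TAC replicates 1 to 4 left of sham replicates 1 to 4; dark segments are circles that open at the first exon of the leading circle, light segments all other circles of the gene. The light segments of Pdlim5 average 21.5 in TAC and 20.8 in sham, and the dark segments 54.9 in TAC and 5.36 in sham.

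Ldb3, Actn2 and Xirp2 gave few reads. Ldb3 had 18 reads in TAC and 4 in sham, Actn2 20 in TAC and 4 in sham, and Xirp2 6 in TAC and 10 in sham. The junction of the most abundant circle of each, written as above, identifies the molecule counted.
Ldb3 exons 11 to 14 of 15: tgcttcatttgtgcgTGCCTGCATCTTCCT
Actn2 exons 10 to 12 of 21: tgcgcaggagctcaaCTGTTGGAGTGGATT
Xirp2 exons 2 to 3 of 9: agcagagctgagcagTGACCTTTAACCTTA
The Ldb3 circle spans chr14:34536565-34544417 on the minus strand (863 nt), the Actn2 circle chr13:12288507-12291890 on the minus strand (530 nt) and the Xirp2 circle chr2:67476718-67482383 on the plus strand (287 nt, of which 195 nt are coding).

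The Ldb3 circle of exons 11 to 14 had 4, 0, 2 and 8 reads in TAC replicates 1 to 4 and 0 in each sham library. Its pooled TAC level was 10.6 times a floor of 3 reads over the sham group. This ratio also leaves out counting error and spread among the TAC libraries and is not a lower bound. The 4 Ldb3 reads of the sham group were all from another circle, exons 2 to 3, in sham replicate 4. Summed over its circles Ldb3 had 2.97, 0, 2.06 and 7.63 normalised reads in TAC and 0, 0, 0 and 0.778 in sham. The limma log2 fold change was 2.64 ± 1.37 (unadjusted p = 0.0539, adjusted p = 0.9995). The deeper TAC libraries were above all sham libraries and TAC replicate 2 was at 0 with most of the sham libraries. Without the 2 shallow libraries limma called the exons 11 to 14 circle (4.11 ± 0.76, adjusted p = 0.0290) and missed the threshold for the gene sum (3.52 ± 1.11, adjusted p = 0.0768). The exons 11 to 14 circle passed the filter of that fit only through the deeper TAC libraries, so a call of it could only be higher in TAC.

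Actn2 summed to 7.44, 0, 5.15 and 3.18 normalised reads in TAC replicates 1 to 4 and 0, 4.54, 0.828 and 0.389 in sham replicates 1 to 4. The groups overlapped through the 2 shallow libraries. The limma log2 fold change was 1.40 ± 1.59 (adjusted p = 0.9995) and, without these libraries, 3.40 ± 0.97 (adjusted p = 0.0569). Its leading circle, exons 10 to 12, had 3, 0, 2 and 0 reads in TAC and 0, 0, 1 and 0 in sham, too few to pass the filters of the main limma and edgeR fits. DESeq2 gave 2.12 ± 2.77 and no adjusted p (unadjusted p = 0.444). Xirp2 summed to 0.744, 0, 1.03 and 2.54 normalised reads in TAC and 0.379, 0, 0.828 and 1.56 in sham, which overlap throughout. Its log2 fold change was 0.40 ± 1.40 (limma, 95% interval −2.34 to 3.15, adjusted p = 0.9995). Without the 2 shallow libraries limma gave 0.54 ± 1.03 for Xirp2 (adjusted p = 0.776). The circle with the most Xirp2 reads, exons 2 to 6 with 8 reads, was seen in sham replicate 4 alone.

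Tnnt2 and Tpm1, the thin filament genes among the 7, differed from the rest of the 7 in the kind of circle they gave. Of their 30 circles 26 were intronic, most of them from a single intron of each gene. The 4 exonic circles of Tnnt2 held 8 reads, 3 of them from the circle of exons 2 to 10. This circle spans chr1:135840861-135849460 on the plus strand (593 nt) and was seen in sham replicate 2 alone. Because 1 read of that library is worth 4.54 normalised reads, it is the most abundant Tnnt2 circle by mean level on 3 reads. Its junction is shown as that of the leading circle of the gene.
Tnnt2 exons 2 to 10 of 15: gggtacatccagaagGGAGAGCCGAGAGCA
Tpm1 had no exonic circle among 254236 back-spliced reads, and no sequence of its intronic circles is shown.

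The intronic circles came from a few introns and began at annotated 5′ splice sites, as did 99.3% of all intronic circles of the table. In Tpm1, 13 of 17 circles lay in intron 8 of a 10-exon transcript (chr9:67029743-67031028, 1286 nt). Of these, 1 was the full intron, and the other 12 ended between 186 and 202 nt from the annotated 3′ splice site (median 192.5 nt). The median over all intronic circles with a distance was 24 nt, and 1.95% of the intronic circles of other genes ended between 150 and 250 nt from the 3′ splice site. The Tpm1 ends thus lay close together within the same intron and outside the range where most intronic circles of the table end. In Tnnt2, 7 of 9 intronic circles lay in intron 9 of a 14-exon transcript (chr1:135849461-135850378, 918 nt). Of these, 6 ended 68 to 133 nt (median 78.5 nt) from the 3′ splice site and 1 was the full intron. Neighbouring ends were not particular to these genes. They were also listed for Svil (134 to 151 nt), Mybpc3 (50 to 67 nt) and Myh6 (90 to 120 nt), among others. Whether such neighbouring ends are separate molecules was not tested. By the number of intronic circles Tpm1 ranked 4 and Tnnt2 8 among 932 host genes.

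Summed over intron 8, Tpm1 had 4, 0, 3 and 12 reads in TAC replicates 1 to 4, against 4, 3, 2 and 3 in sham replicates 1 to 4. In normalised reads this was 3.42 ± 3.15 in TAC and 4.35 ± 6.21 in sham (SD, n = 4 each), and the groups overlapped. The higher sham mean rested on the 3 reads of sham replicate 2, worth 13.6 normalised reads. Among the other libraries, the deeper TAC libraries (2.97, 3.09 and 7.63) were all above the deeper sham libraries (1.52, 1.66 and 0.584). The sum over intron 9 of Tnnt2 was 5, 0, 3 and 7 reads in TAC and 4, 0, 0 and 1 in sham, or 2.81 ± 1.96 normalised reads in TAC and 0.428 ± 0.732 in sham. Here the deeper TAC libraries were above all sham libraries and TAC replicate 2 was at 0. The circle of that intron ending 80 nt from the 3′ splice site had 2, 0, 2 and 2 reads in TAC and 2, 0, 0 and 0 in sham (limma log2 fold change 1.82 ± 1.20, adjusted p = 0.834). For the gene sums limma gave 0.67 ± 1.60 for Tnnt2 and −0.10 ± 1.59 for Tpm1 (adjusted p = 0.9995 for both). The 95% intervals were −2.48 to 3.81 for Tnnt2 and −3.22 to 3.02 for Tpm1. With both shallow libraries left out, limma gave 2.94 ± 1.08 for Tnnt2 (unadjusted p = 0.0180, adjusted p = 0.114) and 1.91 ± 0.72 for Tpm1 (unadjusted p = 0.0209, adjusted p = 0.123), so the sign for Tpm1 turned and neither was called.

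**Figure D5:**
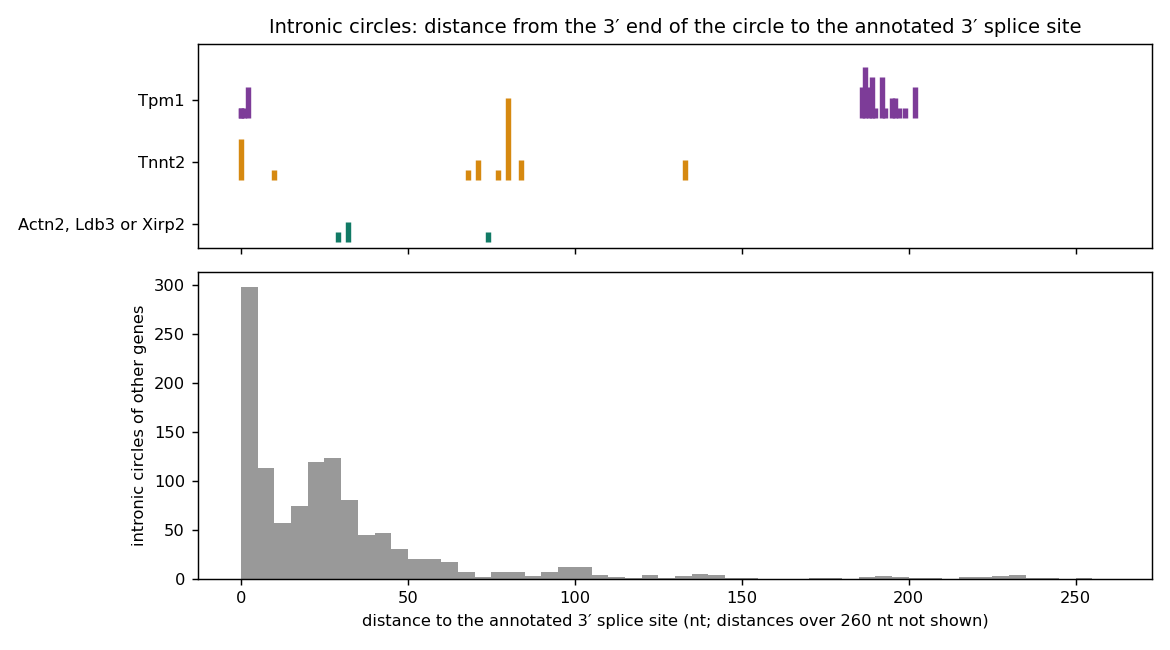
Distance (x axis, nt) from the 3′ end of each intronic circle to the annotated 3′ splice site of its intron. Upper panel: circles of Tpm1, Tnnt2 and the remaining genes of the 7, each tick 1 circle with a height that grows with its reads; lower panel: number of intronic circles of other genes per 5-nt bin. Tpm1 ticks gather at 186 to 202 nt, and 134 circles of all genes with a distance over 260 nt are not shown.

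Across all host genes, limma called none of the 7 gene sums, where 0.0337% of the host genes tested were called, and none of the 7 had an unadjusted p under 0.05. edgeR tested 3 of them (Pdlim5, Fhod3 and Tnnt2) and called none, where 8.24% of tested hosts were called, and 1 had an unadjusted p under 0.05. DESeq2 gave an adjusted p for 2 of them and called Pdlim5, where 7.29% of hosts were called. Of the 7 limma estimates 5 were positive, with a median log2 fold change of 0.67, against a median of 0.13 and 55.0% positive over all tested hosts. When both shallow libraries were left out, limma called 2 of 7 hosts, Pdlim5 and Fhod3, where 6.06% of all hosts were called, and all 7 estimates were positive where 68.1% of all hosts were. At the level of circles the same fit called 8 of 21 tested circles of the 7 genes, all higher in TAC, where 17.9% of all tested circles were called and 14.6% were called higher. These were the Pdlim5 circles of exons 7 to 10, 7 to 11 and 4 to 7, the Fhod3 circles of exons 11 to 13 of 27, 11 to 16 of 27 and 2 to 3 of 25, Ldb3 exons 11 to 14 and Actn2 exons 7 to 12. Several of them rest on 4 or 5 reads in TAC. In all, 5 of the 101 circles were seen in at least 3 TAC libraries and in no sham library, as were 1.88% of all circles of the table. All 5 were among these 8 called circles, and they passed the filter of this fit only through the 3 deeper TAC libraries. A call of them could therefore only be higher in TAC, so their direction carries no information. edgeR called 3 of 6 circles without the shallow libraries, where 30.0% of all tested circles were called and 16.4% were called higher. Of these 3 circles, Pdlim5 exons 7 to 11 likewise had no sham read. Pdlim5 exons 7 to 10 had sham reads but passed this edgeR filter only through the deeper TAC libraries. edgeR also called 2 of 3 hosts, Pdlim5 and Fhod3, where 21.6% of all tested hosts were called.

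Of 62 other genes on a list made for the Z-disc and thin filament, 31 had circles, 176 in all. The list also took in genes of other structures, such as Jph2 and Bves, and the non-muscle Actn1 and Actn4. limma tested 18 of these hosts and called none. There were 14 positive and 4 negative estimates and a median log2 fold change of 0.73 against 0.13 over all tested hosts. edgeR tested 7 and called 1, Svil (supervillin, an actin- and myosin-binding protein). Svil had 26.8, 0, 21.6 and 19.7 normalised reads in TAC replicates 1 to 4 and 3.03, 13.6, 4.14 and 2.72 in sham replicates 1 to 4 (log2 fold change 1.91 ± 0.65, adjusted p = 0.0450). The call for Svil was lost without any 1 of the 6 deeper libraries (adjusted p between 0.116 and 0.325), with no filter on low counts (adjusted p = 0.369) and with DESeq2 (adjusted p = 0.0929). Among the more abundant of these hosts besides Svil were Fhl2, a LIM protein of the Z-disc (115.4 ± 61.1 normalised reads in TAC, 51.1 ± 16.0 in sham; SD, n = 4 each), and Mypn, which binds alpha-actinin (42.1 ± 28.7 in TAC, 16.5 ± 2.07 in sham; SD, n = 4 each). Neither was called, at a log2 fold change of 0.96 ± 0.57 with limma (adjusted p = 0.9995) and 0.86 ± 0.62 with edgeR (adjusted p = 0.414) for Fhl2. For Mypn, which was at 0 in TAC replicate 2, the signs differed, with −0.29 ± 1.07 from limma (adjusted p = 0.9995) and 1.09 ± 0.62 from edgeR (adjusted p = 0.277).

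The hosts whose summed circles were most like the sum over the 7 genes across the 8 libraries, by Pearson's r of log2(value + 0.195), were Rbm33 (r = 0.994), Cdyl (r = 0.991) and Ankib1 (r = 0.989). The libraries share their depth between the genes, and r is a description without a test. Rbm33 had 38.7, 0, 35.0 and 31.8 normalised reads in TAC replicates 1 to 4 and 3.41, 36.3, 3.31 and 4.67 in sham replicates 1 to 4. Like the 7 genes, it was at its lowest in TAC replicate 2 and was as high in sham replicate 2 as in the deeper TAC libraries.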

How the data were processed

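Members and gene lists were chosen with earlier results of these data known. The deposited signal is what remains after the authors divided the back-spliced reads of each library by a size factor. This was read from the values: 100% were whole multiples of the smallest value in their library within 0.001, and the factors equalled DESeq2's median-of-ratios factors. The submitters' processing notes list mm10, HISAT2, StringTie and DESeq2. Versions, roles, the circRNA caller and the use of strand count as not given in the sources used here. No column lacked a sample (0 left out).

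The main test was limma 3.58.1 (R 4.3.3), with trend, on log2(value + 0.195). The pseudocount is the smallest non-zero value, and features above 0 in at least 4 of 8 libraries were tested. Its SE followed the trend over all features rather than the spread of a single feature. edgeR 4.0.16 (quasi-likelihood test, TMM, robust, minimum count 5, minimum total 15) and DESeq2 1.42.0 ran on the whole reads recovered, where edgeR called 94 of 717 circles. All tests were two-sided, fitted on the whole table and adjusted by Benjamini and Hochberg at 0.05. The 95% intervals of fold changes are ± 1.96 SE. An adjusted p that DESeq2 left missing stays missing. Each group holds 4 mice, by the labels' protocols, and replicates are numbered in accession order.

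Exons, spliced lengths and coding parts were taken from GENCODE M21, using the isoform listed in the table or else a transcript with the same exon count. Overlapping and antisense genes were not separated. Named circles are, per gene, the most abundant, the second most abundant where several were tested, that with the smallest limma p, and any called by limma or edgeR. Others were chosen after their values were seen. From the list of other genes, called hosts and the 4 with the largest mean are named, except for an item that is not reported here. Scripts were tested on simulated data. Alternatives were other pseudocounts, filters, scalings and tests, a length correction, and leaving out each library or both shallow ones.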

Additional observations from a re-analysis of the deposited data

Results flagged for a closer look

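Of 35 groups of 4 libraries examined (the gene sums and named circles in each group), 12 had a library far from the other 3. In 7 of these the other 3 were all at 0, so that a single library above 0 is far from the rest by construction, and the share of about 1 in 20 that chance gives otherwise is no measure for them. Of the 12 libraries, 5 were sham replicate 2, the shallow sham library in which 1 read is worth 4.54 normalised reads. It had 86.32 normalised reads of Fhod3 where the other sham libraries had 10.3 to 13.7, 77.23 of the Fhod3 circle of exons 11 to 13 of 27, 18.17 of the Pdlim5 circle of exons 7 to 10, 13.63 of summed Tpm1 and 13.63 of the Tnnt2 circle of exons 2 to 10. In TAC replicate 2 summed Fhod3 was 0, against 40.2 to 48.4 in the other TAC libraries. The remaining 6 were single libraries above others at 0: Ldb3 in sham replicate 4 (0.7782), Actn2 exons 10 to 12 in sham replicate 3 (0.828), Xirp2 exons 2 to 3 in sham replicate 3 (0.828), Fhod3 exons 11 to 16 of 27 in sham replicate 1 (0.3792), the Tnnt2 intron 9 circle ending at 135850298 in sham replicate 1 (0.7584) and the Tpm1 intron 8 circle ending at 67029930 in TAC replicate 3 (1.029).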

How the results depend on the processing

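No paired analysis was possible because the replicate numbers are in accession order and pair no TAC mouse with a sham mouse. The number of circles of the 7 genes called by limma (0) was 8 without both shallow libraries, where 17.9% of all tested circles were called. It was 1 with edgeR (13.1% of all) and 2 with DESeq2 (1.68% of all). As single libraries were left out it ranged from 0 to 1 (1 without TAC replicate 2), where 0 to 41 of all circles were called. Of the 8 circles, 5 had no sham read and could only be called higher in TAC. By edgeR the number called was 1, against 0 with no filter and 3 without both shallow libraries, where 30.0% of all tested circles were called. It was 0 to 3 with single libraries left out, where 0 to 248 of all circles were called. Gene sums called by limma (0) were 2 without both shallow libraries (6.06% of all hosts called) and 1 with DESeq2 (7.29% of all). They were 0 to 1 with single libraries left out, where 1 to 28 of all hosts were called. By edgeR (0, with 8.24% of all) they were 2 without both shallow libraries (21.6% of all). With single libraries left out edgeR called 0 to 1 of them, where 11 to 230 of all hosts were called.

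Over all circles limma called 1, against 0 with a filter of 10 reads in 4 libraries, TMM, no intensity trend or the length trend removed, 94 with edgeR, 23 with DESeq2, 1037 without both shallow libraries and 0 to 41 with single libraries left out. edgeR called 94 (53 higher, 41 lower), against 61 by library totals (25 higher, 36 lower), 0 with no filter, 26 with the length offset (6 higher, 20 lower), 344 without both shallow libraries and 0 to 248 with single libraries left out. For all hosts limma called 1, against 0 with that filter, TMM or no trend, 4 by library totals, 84 with edgeR, 42 with DESeq2, 221 without both shallow libraries and 1 to 28 with single libraries left out; edgeR called 84, against 15 with no filter, 299 without both and 11 to 230 with single libraries left out.

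Pdlim5 and its exons 7 to 10 circle were higher in TAC under every alternative run. In the edgeR fits without sham replicate 2 or without both shallow libraries, that circle passed the filter only through the deeper TAC libraries. Signs turned for low or mixed features. The limma log2 fold change of the Fhod3 circle of exons 11 to 13 of 27 (−0.01) was 0.34 with pseudocount 1, 0.064 with TMM, 0.49 with edgeR, 0.027 with DESeq2, 2.86 without both shallow libraries and −0.84 to 1.74 with single libraries left out, and its edgeR value (0.49) −0.22 to 2.25. The Fhod3 circle of exons 6 to 9 (0.15) gave −0.17 with pseudocount 1, −0.23 by library totals, −0.15 with the length trend removed, −0.71 with DESeq2 and −0.64 to 1.12 with single libraries left out. The Pdlim5 circle of exons 3 to 6 (limma 1.37) gave −0.20 with edgeR, which became 0.082 with RLE factors, 0.34 with the length offset and −0.47 to 0.22 with single libraries left out. The Fhod3 sum (−0.85) was 1.80 without both shallow libraries, 0.34 with edgeR, 0.10 with DESeq2 and −1.55 to 1.10 with single libraries left out. The Tpm1 sum (−0.10) was 0.12 with pseudocount 1, 1.91 without both, 0.53 with DESeq2 and −0.75 to 1.10 with single libraries left out; with single libraries left out, Xirp2 (0.40) ranged from −0.19 to 1.13 and Tnnt2 (0.67) from −0.27 to 1.82, and Tnnt2 was 2.94 without both. The TAC to sham ratio of mean levels was 0.801 for Fhod3 when scaled by library totals (1.06 as deposited), and without both shallow libraries 3.51 for Fhod3, 12.95 for Actn2 (2.74), 4.40 for Tnnt2 (0.842) and 4.16 for Tpm1 (0.968). The cause of these changes was not tested. Depth limits Ldb3, Actn2, Xirp2, Tnnt2 and Tpm1, with 16 to 37 reads each over 8 libraries.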
